A study of Mus musculus with 13 samples.

Results

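The 9 genes described here encode transcription factors that build and maintain the gonadotrope, the pituitary cell that makes luteinizing hormone and follicle-stimulating hormone. They are Pitx1, Otx1, Lhx2, Lhx3, Lhx4, Isl1, Gata2, Nr5a1 and Nr0b1. Their sites were taken as every peak of 12 deposited lists that the authors' annotation credits to one of these names, at most 100 kb from the start of the gene. The rule found 376 peaks of 538751 in all, around 8 of the 9 genes. No peak named Lhx3. Of the 376 peaks, 18 were SMAD2/3 peaks, 247 were FOXL2 peaks and 111 were peaks of acetylated histone H3 lysine 27 (H3K27ac).

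The study used chromatin immunoprecipitation and sequencing (ChIP-seq) in LβT2 cells, a single clonal mouse line of the gonadotrope type. The cells carried a lentiviral cassette with constitutive GFP and a doxycycline-inducible, FLAG-tagged mouse FOXL2, so the FOXL2 measured here is a tagged and induced protein. Every library, vehicle or activin, came from cells induced with doxycycline for 48 h, kept for 2 h in 2% serum and then treated for 1 h with activin A at 1 nM or with vehicle alone. For each of the 3 targets there were 2 vehicle and 2 activin libraries, each pooled from 3 plates. These libraries are the replicates, and nothing in the labels says that they came from separate passages, so a p-value here measures only the spread between these samples. A test of 2 libraries against 2 cannot give a p under 0.333.

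Activin A binds receptors that phosphorylate SMAD2 and SMAD3, which enter the nucleus and bind DNA beside other factors, among them the forkhead protein FOXL2 in gonadotropes. The bicoid-type homeodomain proteins PITX1 and OTX1, the LIM-homeodomain proteins LHX2, LHX3, LHX4 and ISL1, the zinc finger protein GATA2 and the nuclear receptor NR5A1 (steroidogenic factor) are known regulators of pituitary development or of gonadotropin subunit and GnRH receptor genes, and NR0B1 (DAX) restrains NR5A1. H3K27ac marks active promoters and enhancers, and broad stretches of it often lie over genes that define a cell type.

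The vehicle SMAD2/3 lists were short, 605 and 144 peaks, against 7784 and 5970 for activin. The FOXL2 lists held between 83834 and 97701 peaks and the H3K27ac lists between 38995 and 41763. Peak files carry no read numbers, so sequencing depth is unknown and may itself set the length of a list. Bulk chromatin also cannot tell fewer occupied cells from less signal per cell. As a check of the cell type, an H3K27ac peak lay within 1000 bp of the start of Cga, Lhb and Gnrhr in all 4 libraries and of Fshb and Foxl2 in none. None of 4 somatotrope and lactotrope markers and none of 2 thyrotrope markers had one. Crhr1, 1 of 4 corticotrope and melanotrope markers, and the endothelial marker Cdh5 had one in all 4 libraries, while Pecam1 had one in 1 library, and their part in the results was not tested.

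Sequences upstream of the starts show what DNA these peaks do and do not cover. RefSeq (GRCm38.p6) gave 250-base windows for 6 of the 9 genes, and 5 of the 9 windows are printed here, some that H3K27ac peaks covered in every library and some that a target covered in only part of them. Each runs 5′ to 3′ on the strand of the gene and ends just before a RefSeq start. Capitals mark any match to the short motifs named after the sequences. The Nr0b1 window was covered by FOXL2 peaks in both vehicle libraries and in neither activin library. The Gata2 and Lhx4 windows lay wholly inside H3K27ac peaks in all 4 libraries. The inner Lhx3 window lay inside H3K27ac peaks in 3 libraries, and the Isl1 window in 1 library only, activin 2. The inner Lhx2 window, not printed, was wholly covered by H3K27ac peaks in vehicle 1 and activin 1 and partly in vehicle 2 and activin 2.
Nr0b1, chrX:86191525-86191774, plus strand: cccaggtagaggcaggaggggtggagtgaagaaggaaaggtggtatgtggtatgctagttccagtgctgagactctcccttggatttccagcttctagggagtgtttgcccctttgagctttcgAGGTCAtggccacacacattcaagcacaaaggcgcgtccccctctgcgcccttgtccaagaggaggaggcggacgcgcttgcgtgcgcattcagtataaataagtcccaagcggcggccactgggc
Gata2, outer start, chr6:88193641-88193890, plus strand: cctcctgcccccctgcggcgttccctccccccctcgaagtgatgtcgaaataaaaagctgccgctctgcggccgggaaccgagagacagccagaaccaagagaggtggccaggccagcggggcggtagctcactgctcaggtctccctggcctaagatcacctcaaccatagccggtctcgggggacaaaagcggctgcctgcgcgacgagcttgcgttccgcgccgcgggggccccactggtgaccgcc
Lhx4, inner start, chr1:155742028-155742277, minus strand: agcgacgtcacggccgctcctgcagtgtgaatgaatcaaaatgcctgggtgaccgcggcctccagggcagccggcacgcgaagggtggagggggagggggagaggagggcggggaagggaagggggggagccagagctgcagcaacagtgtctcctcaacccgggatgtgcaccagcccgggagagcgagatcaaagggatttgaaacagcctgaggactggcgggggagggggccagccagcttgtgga
Lhx3, inner start, chr2:26206576-26206825, minus strand: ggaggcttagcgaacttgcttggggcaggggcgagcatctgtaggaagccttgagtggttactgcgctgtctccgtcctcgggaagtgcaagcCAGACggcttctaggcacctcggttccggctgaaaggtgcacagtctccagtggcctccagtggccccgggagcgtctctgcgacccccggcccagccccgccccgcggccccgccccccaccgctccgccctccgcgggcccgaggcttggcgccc
Isl1, chr13:116309689-116309938, minus strand: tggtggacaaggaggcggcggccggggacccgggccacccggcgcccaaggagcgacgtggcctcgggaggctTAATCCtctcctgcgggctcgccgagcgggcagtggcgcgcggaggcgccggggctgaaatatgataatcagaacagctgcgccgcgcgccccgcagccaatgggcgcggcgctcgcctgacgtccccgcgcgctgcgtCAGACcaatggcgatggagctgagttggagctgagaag

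Motifs were searched on both strands, and a match is a run of letters and not a bound site. CAGAC, the short SMAD element, was found in 5 of the 9 windows of these genes and in 42.2% of 32851 RefSeq promoter windows of this length. The printed Lhx3 window holds it with its first base 157 bases before the start, and the Isl1 window 38 bases before. AGGTCA, an element bound by nuclear receptors, was found only in the Nr0b1 window among these 9 (14% of all windows), 126 bases before the start. TAATCC, a bicoid-type element, was found only in the Isl1 window (6.25% of all windows), 177 bases before the start. The forkhead element GTAAACA (3.17% of all windows), the LIM-homeodomain core TAATTA (4.84%) and the GATA element AGATAA (9.99%) had no match in the 9 windows. These motifs do not overlap one another in the printed windows.

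SMAD2/3 was almost absent around the 9 genes with vehicle and present around Pitx1, Isl1, Nr5a1 and Nr0b1 with activin. For these genes the vehicle libraries held 1 and 0 SMAD2/3 peaks and the activin libraries 9 and 8. The groups did not overlap. The means were 0.5 ± 0.707 and 8.5 ± 0.707 (SD, n = 2), a difference of 8 peaks, and the exact permutation test (two-sided) gave p = 0.333, the smallest it can give. The highest-placed SMAD2/3 peak of these genes by −log10 q was at place 581 in vehicle 1, 1283 in activin 1 and 1384 in activin 2. Reducing all 4 SMAD2/3 lists to the length of the shortest, 144 peaks, therefore left none of them in any list. The difference was then 0, an outcome fixed in advance that does not bear on activin. As a rate, the lists held 16.5 and 0 such peaks per 10000 of the list with vehicle and 11.6 and 13.4 with activin, which overlap.

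Merging the 4 lists gave 9 SMAD2/3 regions around the genes. Of these, 7 of 9 were called in both activin libraries and in no vehicle library, against 54.1% of all SMAD2/3 regions within 100 kb of the gene they name. That base also holds regions not called in both activin libraries. Among regions called in both, 7 of 8 had no vehicle peak, against 4070 of all 4509, so the 2 shares were close. None of the 9 was found in both vehicle libraries only (0.0266% of all regions), and none in all 4 libraries (1.54%). Of the 8 genes with any peak, 4 had SMAD2/3 peaks in each activin library, against 11.8% of the 28143 genes named within 100 kb. The 18 SMAD2/3 peaks fell on 4 genes only, and Otx1, Lhx2, Lhx4 and Gata2 were named by none.

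**Figure D1:**
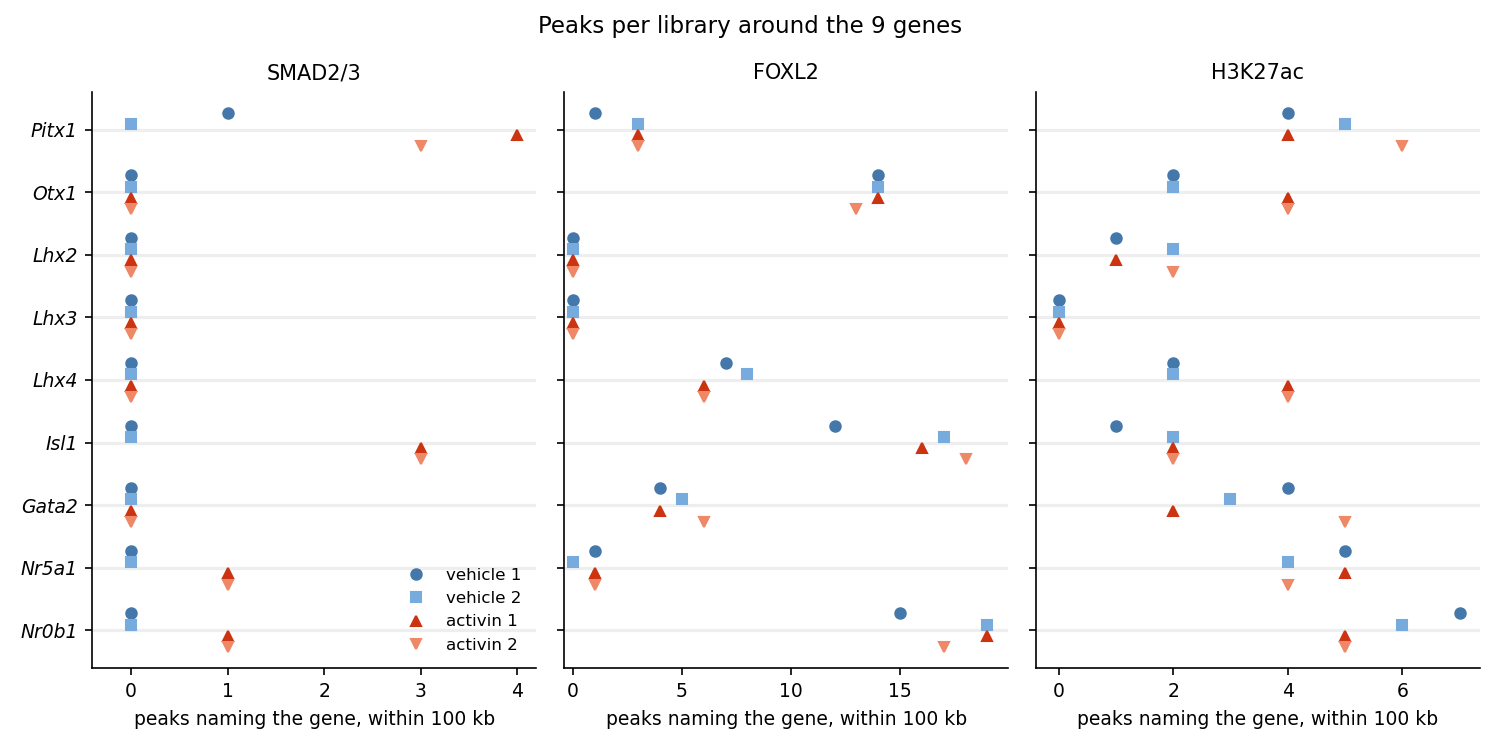
Number of peaks naming each gene within 100 kb of its start (x axis) in the 4 libraries of SMAD2/3, FOXL2 and H3K27ac, with 1 point per library. SMAD2/3 points leave 0 with activin for Pitx1, Isl1, Nr5a1 and Nr0b1, while FOXL2 counts lie highest at Nr0b1, Isl1 and Otx1 in vehicle and activin libraries alike.

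Pitx1, whose homeodomain product acts in pituitary development and on gonadotropin promoters, had the most SMAD2/3 peaks under its own name. Vehicle libraries held 1 and 0 and activin libraries 4 and 3. Isl1 had 3 and 3 with activin, so the 2 genes tied in activin 2 and their order is not set by these data. Its mean of 3.5 peaks over the activin libraries was exceeded by 126 of 28143 genes, and the median over all genes was 0. Each site is given by its own fold enrichment, a linear ratio that the authors' peak caller set over a background not described in the sources used here, and by its percentile within its list by −log10 q, where 100 is the strongest peak.

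One Pitx1 site lay in the promoter, on chromosome 13 from 55836428 to 55836614 (GRCm38), 0.33 kb upstream of the start at 55836192 on the minus strand. It had a fold of 5.05 in activin 1 and 3.55 in activin 2, with percentiles of 37.8 and 4.36, so it was weak in both lists. A FOXL2 peak lay over it in both activin libraries (fold 4.0 and 3.01) and in no vehicle library. The SMAD2/3 and FOXL2 summits were 4 bp apart in activin 1 and 9 bp apart in activin 2.

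A second Pitx1 site, intergenic and 28.0 kb upstream (55864115 to 55864339), had a SMAD2/3 fold of 6.16 and 4.08 in the activin libraries and none with vehicle. FOXL2 peaks lay there in vehicle 2 and activin 1 only. The H3K27ac region around it (55862622 to 55865277) was present in all 4 libraries, and its strongest peak had a fold of 3.95, 3.65, 4.99 and 4.20 in vehicle 1, vehicle 2, activin 1 and activin 2. Only the activin 1 peak spanned the SMAD2/3 interval, which in the other 3 libraries fell in a gap between a pair of H3K27ac peaks.

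The strongest Pitx1 site was the farthest, 94.6 kb upstream (55930591 to 55930934). It was the single SMAD2/3 site of these genes with a vehicle peak: its fold was 4.17 in vehicle 1, 11.1 in activin 1 and 7.70 in activin 2, and it was not called in vehicle 2. The percentile was 4.13 in the list of vehicle 1 and 83.5 and 61.9 in the activin lists. FOXL2 peaks lay over it in vehicle 1, vehicle 2 and activin 2. The fourth site, 35.0 kb upstream (55871116 to 55871316), was called in activin 1 alone with a fold of 7.81, and the H3K27ac region there (55870293 to 55871627) was called in both activin libraries (3.60 and 4.0) and in neither vehicle library.

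Isl1, a LIM-homeodomain gene expressed in gonadotropes and needed early in the pituitary rudiment, had 3 SMAD2/3 sites, all on the gene side of its start (chromosome 13, 116309685, minus strand) and all called in both activin libraries and neither vehicle library. The mean of 3 peaks was exceeded by 195 genes. An exonic site 2.11 kb downstream of the start (116307469 to 116307685) had a fold of 9.05 and 6.51. It shared bases with a FOXL2 region found in all 4 libraries (116307422 to 116308632, fold 26.6, 19.1, 23.9 and 24.9), although a FOXL2 peak itself touched the SMAD2/3 interval only in vehicle 1 and activin 1.

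The next Isl1 site lay 12.7 kb downstream, past the end of the gene (116296863 to 116297165), with a fold of 6.44 in activin 1 and 7.49 in activin 2. Its SMAD2/3 summits were 8 bp and 28 bp from a FOXL2 summit. The last lay 15.6 kb downstream (116293841 to 116294243) with a fold of 7.89 and 7.05 and percentiles of 76.3 and 66.4. FOXL2 was called there in vehicle 2 and activin 2 only.

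Nr5a1, whose product is the nuclear receptor that marks the gonadotrope lineage, had 1 SMAD2/3 site. It lay in an intron on chromosome 2 from 38695771 to 38696056, 15.3 kb downstream of the start at 38711188 (minus strand). The fold was 7.83 and 6.96 and the percentile 80.0 and 76.8, with no vehicle peak. The FOXL2 peak at this site, the only one named for Nr5a1, had a fold of 2.84 in vehicle 1, 3.26 in activin 1 and 4.96 in activin 2 and was not called in vehicle 2. The SMAD2/3 and FOXL2 summits lay 3 bp apart in activin 1 and 5 bp apart in activin 2.

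Nr0b1, whose product restrains NR5A1, had 1 SMAD2/3 site, on chromosome X from 86187207 to 86187603, 4.36 kb upstream of its start at 86191764 (plus strand). Its fold was 6.48 and 4.48 in the activin libraries, with no vehicle peak. FOXL2 was present here in all 4 libraries, and its summits lay 334 bp and 349 bp from the SMAD2/3 summits, farther than at the promoter of Pitx1 or in the intron of Nr5a1.

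Of the 8 SMAD2/3 regions found in both activin libraries, 5 shared at least 1 bp with a FOXL2 region that both activin libraries held, 62.5% with a 95% Wilson interval of 30.6% to 86.3% (counting error only), against 81.3% of all such SMAD2/3 regions. Without the activin 1 FOXL2 library it was 7 of 8, 87.5%, but leaving out a library loosens the rule. The share of all SMAD2/3 regions under the looser rule was not computed, so 87.5% cannot be set against 81.3%. All 8 of 8 shared bases with a merged H3K27ac region that both activin libraries held, against 78.3% of all. Counted by single peaks, 7 of the 8 regions under the gene's own name lay under H3K27ac peaks of both activin libraries. The exception was the Pitx1 site 28.0 kb upstream. The share of all SMAD2/3 regions by single peaks was not computed. Read from the other side, 5 of 52 FOXL2 regions found in both activin libraries overlapped SMAD2/3 (5.27% of all such regions) and 14 of 52 overlapped H3K27ac (19.4%).

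**Figure D2:**
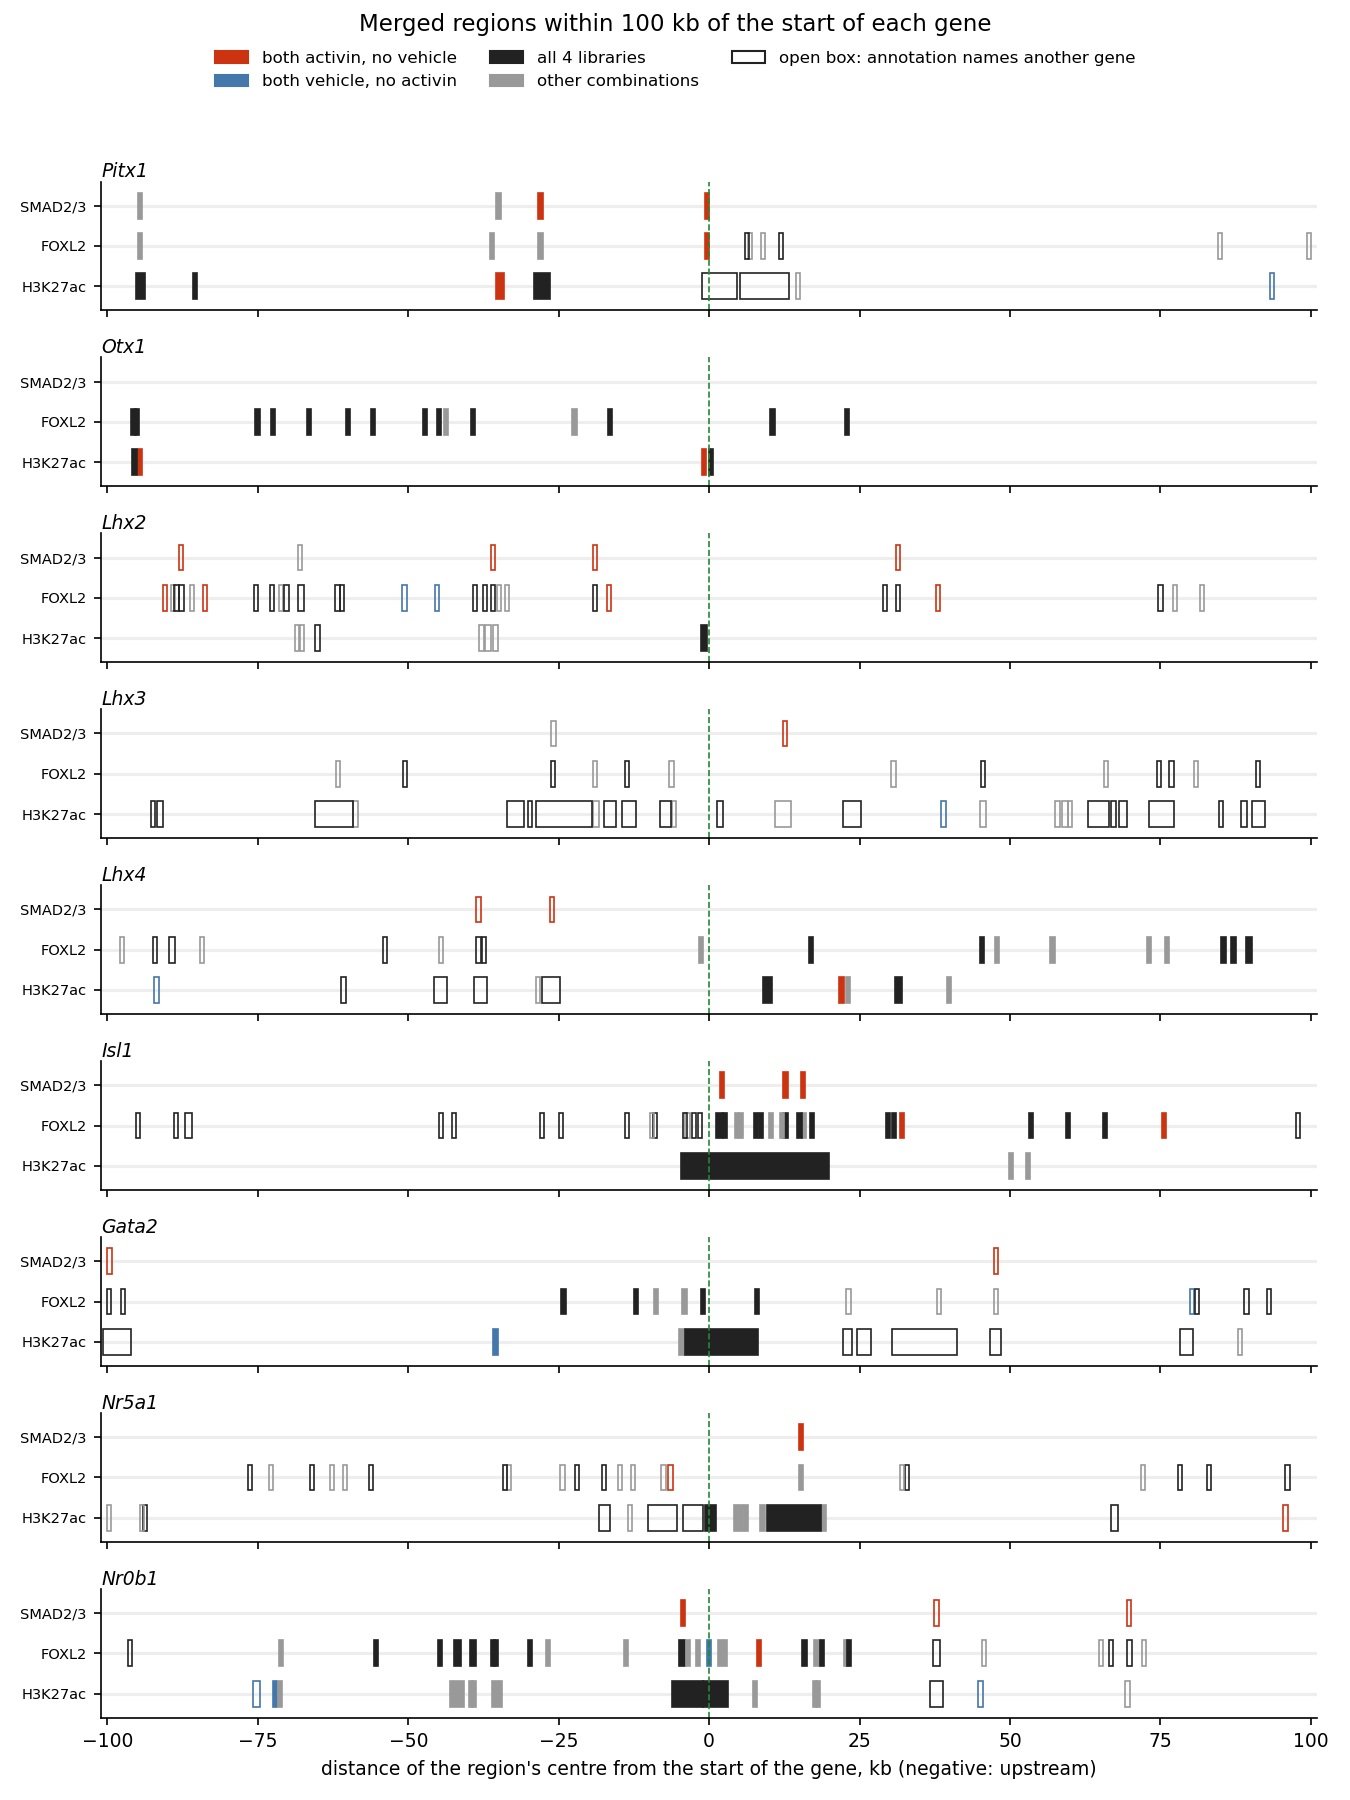
Merged regions of each target within 100 kb of the start of each gene (dashed line), by distance from the start in kb, coloured by the libraries that hold a peak; boxes narrower than 0.7 kb are drawn at 0.7 kb. Filled boxes are named for the gene and open boxes for another one: the broad filled H3K27ac boxes lie at Isl1, Gata2, Nr5a1 and Nr0b1, and every box of Lhx3 is open.

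FOXL2 sat around these genes with and without activin. The vehicle libraries held 54 and 66 FOXL2 peaks and the activin libraries 63 and 64. The groups overlapped. The means were 60 ± 8.49 and 63.5 ± 0.707 (SD, n = 2), a difference of 3.5 peaks with an exact permutation p of 1 (two-sided). Without the vehicle 1 FOXL2 library the difference was -2.5. Of 77 merged FOXL2 regions, 45 were present in all 4 libraries (47.1% of all FOXL2 regions), 4 in both activin libraries only (8.72% of all) and 1 in both vehicle libraries only (3.25%). Without the activin 1 library the activin-only count was 7, and without the vehicle 1 library the vehicle-only count was 8. Leaving out a library loosens the rule, so these counts can only stay or rise. The share over all regions under the looser rule was not computed. A FOXL2 peak in all 4 libraries was found for 6 of the 8 genes, against 60.3% of all named genes.

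Nr0b1 had 15 and 19 FOXL2 peaks with vehicle against 19 and 17 with activin. Its mean of 17.5 was exceeded by 357 of 28143 genes. Isl1 followed with 12, 17, 16 and 18 peaks in vehicle 1, vehicle 2, activin 1 and activin 2, a mean exceeded by 520 genes. Otx1, which codes for a bicoid-type factor of the forebrain and young pituitary, had 14 and 14 with vehicle, then 14 and 13 with activin, a mean exceeded by 752 genes. The median over all genes was 1.25. Nr0b1 and Isl1 overlap in their counts, and Isl1 and Otx1 overlap as well.

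Lhx4, which acts with Lhx3 in the growth of the pituitary pouch, had 7 and 8 FOXL2 peaks with vehicle and 6 and 6 with activin. Gata2, a zinc finger gene of gonadotropes and thyrotropes, had 4, 5, 4 and 6. Pitx1 had 1 and 3 with vehicle, against 3 and 3 with activin, and Nr5a1 had 1 and 0, then 1 and 1. No FOXL2 peak named Lhx2, a LIM-homeodomain gene whose product binds the Cga promoter. This order holds for peaks under the gene's own name: counted by position whatever the name, FOXL2 peaks within 100 kb numbered 25, 32, 29 and 33 at Isl1 (in the order vehicle 1, vehicle 2, activin 1, activin 2) and 21, 25, 25 and 22 at Nr0b1. By position Lhx2 had 19, 21, 24 and 24 FOXL2 peaks, more in each library than the 14, 14, 14 and 13 of Otx1.

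To compare strength without comparing lists of different length, the regions present in all 4 libraries of a target were ranked by −log10 q within each library over that one set, from 0 to 100. Of the 45 such FOXL2 regions, 12 ranked higher in both activin libraries than in either vehicle library (25.8% of all such regions) and 17 ranked lower in both (33.1% higher in both vehicle libraries). Their median change was -2.93 rank points. Every gene with such regions had some in each direction: 3 up and 5 down of 11 at Nr0b1, 2 and 5 of 13 at Otx1, 3 and 3 of 12 at Isl1, 3 and 2 of 5 at Lhx4, and 1 and 2 of 4 at Gata2.

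The Nr0b1 locus showed both directions within 25 kb. At the SMAD2/3 site 4.36 kb upstream, the FOXL2 region (86186802 to 86187734) ranked 70.5 and 78.6 with vehicle, then 46.6 and 43.9 with activin. The strongest downstream region, 15.8 kb from the start (86207110 to 86207969), ranked 87.8 and 82.7 with vehicle, against 92.6 and 93.0 with activin. In neither case did the groups overlap. The Nr0b1 FOXL2 region of highest mean percentile lay 41.8 kb upstream (86149355 to 86150492). It ranked 93.5 and 92.7 with vehicle, then 91.6 and 88.2 with activin, again without overlap. Over all FOXL2 regions in all 4 libraries, 25.8% ranked higher in both activin libraries and 33.1% in both vehicle libraries.

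Over the start of Nr0b1 itself, a FOXL2 region (86191567 to 86191832) was called in both vehicle libraries, with a fold of 2.65 and 3.22, and in neither activin library. It was the only vehicle-only FOXL2 region of the 77. It was also weak, at percentiles of 1.29 and 12.9 of its lists, with a −log10 q of 2.61 and 4.66. Its peaks covered 187 and 148 of the 250 bases of the Nr0b1 window printed above, and both peaks span the AGGTCA match. A region called in both activin libraries only lay 8.28 kb downstream (86199813 to 86200269, fold 9.58 and 10.0).

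At Isl1 the FOXL2 region under the SMAD2/3 site 12.7 kb downstream ranked 68.5 and 68.0 with vehicle, then 86.9 and 87.5 with activin. A pair of neighbouring regions 29.7 kb and 30.7 kb downstream went the other way. The first ranked 57.3 and 61.3, then 38.3 and 35.7, and the second 65.8 and 46.2, then 39.8 and 39.4. The strongest FOXL2 region of Isl1, 65.8 kb downstream (116243666 to 116244208), had a fold of 37.4, 20.2, 40.0 and 33.3 and ranked above 90 in every library. The 2 activin-only FOXL2 regions of Isl1 lay 32.1 kb and 75.6 kb downstream, with folds of 8.30 and 7.23 and of 4.03 and 4.84.

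Otx1 had no SMAD2/3 peak of any name within 100 kb, and 13 of its 15 FOXL2 regions were present in all 4 libraries. All but 2 of the 15 lay upstream, and those upstream, though credited to Otx1, were annotated to introns of another gene. The strongest was near the edge of the window, 95.0 kb upstream (chromosome 11, 22096418 to 22097032), with a fold of 31.9, 29.1, 35.7 and 31.0. Its neighbour 95.7 kb upstream ranked 52.2 and 77.7 with vehicle, against 86.3 and 86.0 with activin. The region 60.1 kb upstream ranked 95.0 and 94.5 with vehicle, then 85.0 and 86.2 with activin. The limit of 100 kb cuts this series of peaks: the peaks just inside it lay 95.7 kb and 95.8 kb away and the next ones 100.9 kb and 101.9 kb, and 115 peaks named Otx1 at any distance against 67 inside.

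For Lhx4 the strongest FOXL2 region lay 87.1 kb downstream of the start, in an intron of another gene (chromosome 1, 155664250 to 155664873). It had a fold of 23.5, 16.8, 24.4 and 22.6. Its neighbour at 85.5 kb, in the same intron, ranked 61.7 and 21.9 with vehicle, against 86.1 and 77.4 with activin. This was the largest spread between vehicle libraries among these regions. Gata2 had its strongest FOXL2 region 24.2 kb upstream (chromosome 6, 88169492 to 88169894), where it ranked 77.9 and 79.8 with vehicle, then 52.9 and 66.7 with activin. The FOXL2 region nearest the Gata2 start, 1.03 kb upstream, ranked 2.37 and 14.9, then 38.3 and 20.6, and the third, 7.98 kb downstream, ranked 68.8 and 75.1, then 54.5 and 64.6. For these 3 Gata2 regions the groups did not overlap. They did at the fourth, 12.2 kb upstream, which ranked 13.4 and 2.71 with vehicle, then 7.10 and 0.241 with activin. Such separation was common: 25.8% of all FOXL2 regions in all 4 libraries ranked higher in both activin libraries and 33.1% in both vehicle libraries.

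**Figure D3:**
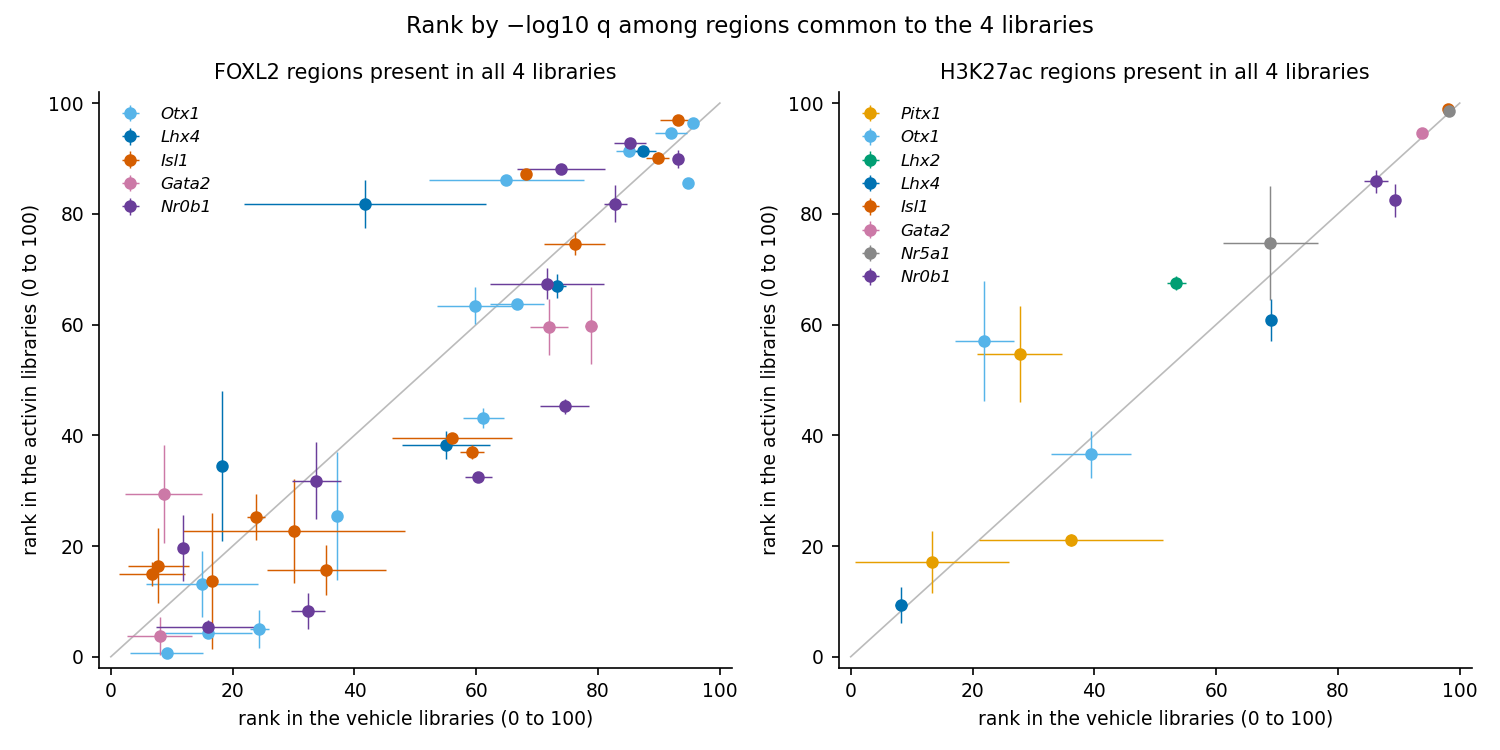
Rank from 0 to 100 by −log10 q of each FOXL2 region (left) and H3K27ac region (right) present in all 4 libraries, vehicle on the x axis and activin on the y axis; points are means of 2 libraries and bars span both. FOXL2 regions of the same gene fall on both sides of the diagonal, and the H3K27ac regions of Isl1, Gata2, Nr5a1 and Nr0b1 sit at the top right.

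H3K27ac covered all 8 genes with a peak in every library, against 47.9% of all named genes. The vehicle libraries held 26 and 26 H3K27ac peaks and the activin libraries 27 and 32, a mean of 26 ± 0 and 29.5 ± 3.54 (SD, n = 2). The difference was 3.5 peaks, with an exact permutation p of 0.333 (two-sided). It was 6 without the activin 1 library, 1 without activin 2, and -1 when only peaks with a −log10 q of at least 5 were counted. Their summed length was 60.5 kb and 61.5 kb in the vehicle libraries, against 62.6 kb and 61.3 kb after activin. The groups overlapped in length, with means of 61.0 ± 0.663 kb and 61.9 ± 0.953 kb (SD, n = 2) and an exact permutation p of 0.667. The difference of 0.959 kb became -1.63 kb at a −log10 q of at least 5, and between 0.285 kb (without activin 1) and 1.63 kb (without activin 2) with a library left out. The mean fold of the peaks was 4.78 and 4.47, then 4.70 and 4.46. Their median percentile within the list was 56.1 and 55.4 with vehicle, against 45.8 and 44.8 with activin, and here the groups did not overlap (exact permutation p = 0.333, two-sided).

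Of 38 merged H3K27ac regions, 14 had a peak in all 4 libraries (47.1% of all H3K27ac regions), 4 in both activin libraries only (5.82%) and 2 in both vehicle libraries only (6.31%). Without the activin 2 library the activin-only count was 9, and leaving out either of the vehicle libraries gave a vehicle-only count of 5. Here too a library left out loosens the rule, and such counts can only stay or rise. Of the 14, 5 ranked higher in both activin libraries (28% of all such regions) and 2 in both vehicle libraries (29.7%). When ranked by fold in place of −log10 q, 3 of the 14 were higher in both activin libraries.

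By the length of peaks under the gene's own name, Isl1 carried the most. Its H3K27ac peaks summed to 19.6 kb and 19.4 kb with vehicle, against 20.2 kb and 24.4 kb with activin, a mean of 20.9 kb that 119 of 28143 genes exceeded. Nearly all of it was 1 broad peak over the gene and past its end, with a fold of 9.69, 9.59, 12 and 10.1 and percentiles of 98.7 to 99.6. All 3 Isl1 SMAD2/3 sites lay inside it. The start is at 116309685, and the peak ended just short of it, at 116309655, 116309645 and 116309678, in vehicle 1, vehicle 2 and activin 1, where a separate peak credited to Gm38193 lay upstream. In activin 2 a single peak crossed the start (116290140 to 116314213). Gata2 had 12.4 kb and 13.3 kb, then 11.1 kb and 10.4 kb, mostly in a domain over its start (88189918 to 88201939, fold 7.67, 7.37, 7.88 and 7.91).

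Nr0b1 carried 12.7 kb and 13.1 kb with vehicle, then 9.14 kb and 7.38 kb with activin. Nr5a1 carried 10.5 kb and 10.8 kb, then 10.4 kb and 10.5 kb. Its main domain lay inside the gene (38692657 to 38701612), with a fold of 7.84, 7.66, 8.83 and 7.90 and percentiles of 98.8 to 99.3, and it held the SMAD2/3 site. The region over the Nr5a1 start (38710128 to 38711911) ranked 61.1 and 76.8 with vehicle, then 85.1 and 64.5 with activin, and the groups overlapped. The mean lengths of Gata2, Nr0b1 and Nr5a1 were exceeded by 578, 737 and 743 genes, and the median over all genes was 0.46 kb. The values of Gata2, Nr0b1 and Nr5a1 overlap: Nr0b1 exceeded Gata2 in vehicle 1, and Nr5a1 exceeded it in activin 2, so the order of the 3 is not set by these data.

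The other genes carried less. Pitx1 had 2.23 kb and 2.32 kb with vehicle, against 6.08 kb and 4.65 kb with activin. Lhx4 had 1.62 kb and 1.08 kb, then 2.92 kb and 2.15 kb. Otx1 had 0.433 kb and 0.855 kb, then 1.66 kb and 1.04 kb, and Lhx2 had 1.06 kb and 0.555 kb, then 1.12 kb and 0.742 kb. Both activin lengths exceeded both vehicle lengths for 4 of the 8 genes, Pitx1, Otx1, Lhx4 and Isl1 (13.5% of all named genes). Lengths were greater in both vehicle libraries for 2 of 8, Gata2 and Nr0b1 (19.8%). The rank of the Gata2 domain by −log10 q did not fall with its length. It was 93.7 and 94.0 with vehicle, then 94.2 and 94.8 with activin. No single gene can pass the test with 2 libraries a group.

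**Figure D4:**
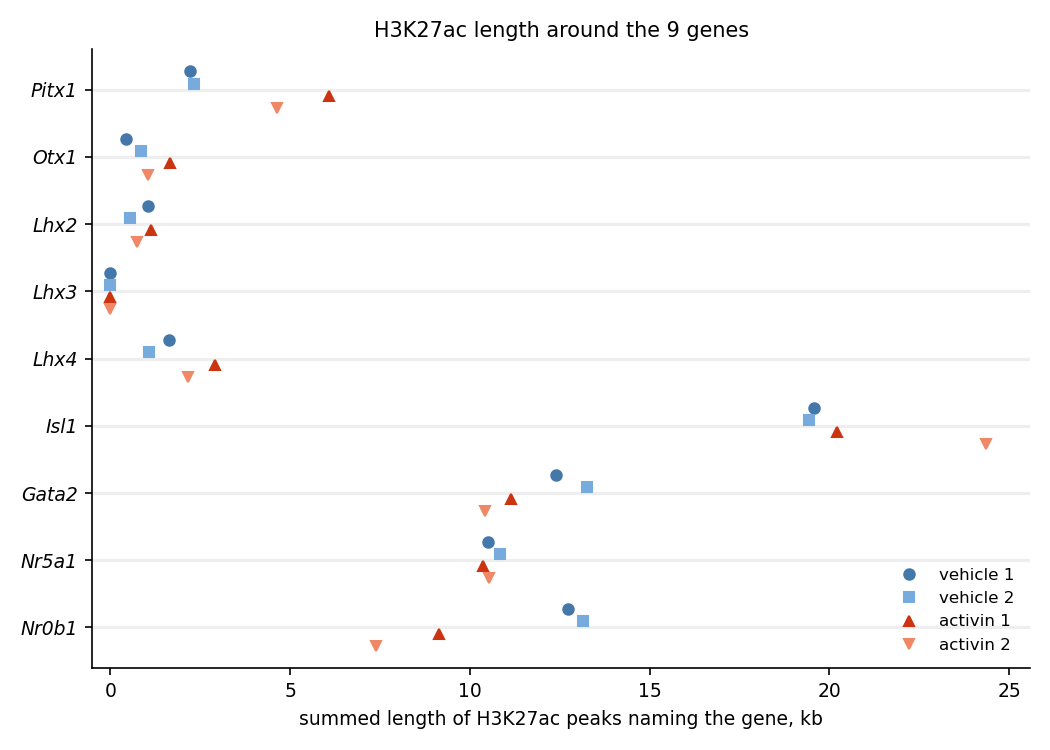
Summed length in kb (x axis) of the H3K27ac peaks naming each gene within 100 kb, with 1 point per library. Isl1 lies highest in all 4 libraries, the Pitx1 activin points lie right of its vehicle points, and the Nr0b1 activin points lie left of its vehicle points.

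Single acetylated regions showed where these lengths came from. At Pitx1 the region 27.8 kb upstream, around the SMAD2/3 site there, ranked 34.7 and 20.8 with vehicle, then 63.3 and 46.0 with activin, and the region 34.8 kb upstream appeared with activin only. At Otx1 an acetylated region 95.5 kb upstream, which overlaps the FOXL2 region 95.7 kb upstream, ranked 17.1 and 26.8 with vehicle, against 67.9 and 46.3 with activin. The Otx1 region of highest mean percentile, 0.26 kb downstream of the start (22001294 to 22001615), ranked 32.8 and 46.0, then 32.4 and 40.8, and the groups overlapped. Regions 0.82 kb and 94.6 kb upstream of Otx1 were called in both activin libraries only, with folds of 3.32 and 2.90 and of 2.84 and 2.76. Both were weak, at percentiles of 28.9 and 3.80 and of 21.0 and 2.77 of the activin 1 and activin 2 lists. At 94.6 kb the peaks of the 2 libraries overlapped only in part.

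The Lhx2 promoter region (chromosome 2, 38350341 to 38351464), 0.87 kb upstream of the start, ranked 51.9 and 55 with vehicle, then 66.2 and 68.7 with activin. At Nr0b1 the region from 86185511 to 86190671, over the SMAD2/3 site, ranked 89.2 and 89.5 with vehicle, against 79.4 and 85.5 with activin, while the one over the start (86190775 to 86194963) ranked 84.4 and 88.3, then 83.8 and 88.0. The groups did not overlap at Lhx2 or at the upstream Nr0b1 region, and they did at the Nr0b1 start. Of all H3K27ac regions in all 4 libraries, 28% ranked higher in both activin libraries and 29.7% in both vehicle libraries. An Nr0b1 region 41.9 kb upstream was called in 3 libraries (fold 4.26, 3.68 and 3.19 in vehicle 1, vehicle 2 and activin 1) and not in activin 2.

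An H3K27ac peak lay within 1000 bp of the annotated start in all 4 libraries for 7 of the 9 genes, the exceptions being Lhx3 and Lhx4. For Lhx4 the acetylated region (155741289 to 155742661, fold 5.41, 5.04, 4.91 and 4.6) lay 9.71 kb inside the annotated start and over the RefSeq window of the inner start printed above. FOXL2 lay within 1000 bp of a start in all 4 libraries for Gata2, in both activin libraries for Pitx1 and in both vehicle libraries for Nr0b1. SMAD2/3 did so for Pitx1 alone.

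The rule leaves out peaks that the annotation credits to a neighbour, and at these loci many of those peaks are close. Of all peaks centred within 100 kb of the 9 starts, 42.9% of SMAD2/3, 42.5% of FOXL2 and 33.6% of H3K27ac peaks named the gene itself. The share was 100% for Otx1, 5.3% for Lhx2 and 0% for Lhx3. The order of the genes therefore changes when peaks of any name are counted. H3K27ac length within 100 kb was then longest at Lhx3, with 36.9 kb and 36.3 kb with vehicle, then 45.2 kb and 43.0 kb with activin. Gata2 had 32.7 kb and 33.8 kb, then 31.0 kb and 27.5 kb. Isl1 followed with 23.8 kb and 23.7 kb, then 24.6 kb and 24.4 kb. Pitx1, low under its own name, had 15.7 kb and 16.0 kb, then 19.9 kb and 18.6 kb. SMAD2/3 peaks by position numbered 4 and 5 with activin at Lhx2, against 4 and 3 at Pitx1.

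The start of Pitx1 was covered by an H3K27ac region (55831503 to 55837420) that the annotation credits to Gm28760. Its fold was 14.3 and 14.4 with vehicle, then 17.1 and 15.2 with activin. In each of the 4 H3K27ac lists this was the highest fold of any peak, place 1 of 38995 to 41763, while by −log10 q it took place 43, 28, 12 and 21. The weak SMAD2/3 and FOXL2 peaks of the Pitx1 promoter lay inside it. A second region beside it (55822998 to 55831045) had a fold of 12.5, 12.1, 14.9 and 13.3.

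Lhx3, which specifies the pituitary and acts on the Cga and Fshb promoters, lay among 144 peaks, none with its name. Distances here run from the RefSeq start at 26208249 on chromosome 2 (minus strand). A SMAD2/3 region 12.6 kb downstream of that start, past the end of the gene (26195390 to 26195849, credited to Gm13553), had a fold of 21.5 and 25.6 with activin and no vehicle peak. It took place 79 of 7784 and place 34 of 5970, the highest of the SMAD2/3 sites near these genes. No FOXL2 peak lay over it, and the nearest FOXL2 summits were 26270 bp and 18939 bp away. The H3K27ac region there (26194618 to 26197260) had a fold of 2.68 in vehicle 1, 6.65 in activin 1 and 5.78 in activin 2 and was not called in vehicle 2. The acetylated region over the inner Lhx3 start (26205872 to 26206986, credited to Gm27196) had a fold of 4.91, 3.41, 4.66 and 6.23.

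Lhx2 had 4 SMAD2/3 regions called in both activin and no vehicle library, each credited to another name and each over FOXL2 peaks in all 4 libraries. The strongest lay 19.0 kb upstream (38332647 to 38332868), with a fold of 8.66 and 8.02 and SMAD2/3 summits 17 bp and 14 bp from a FOXL2 summit. No H3K27ac peak lay over any of the 4. Nr0b1 had another activin-only site 37.8 kb downstream (86229378 to 86229709, credited to Mageb4), with a fold of 11.8 and 12, and a weaker one 69.8 kb downstream. Lhx4 and Gata2 each had 2 activin-only sites under other names.

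Counted by position in place of name, 19 SMAD2/3 sites near 8 of the 9 genes were called in both activin libraries, 18 of them with no vehicle peak (4070 of all 4509 such regions). Otx1 was the exception. The 8 sites under the gene's own name had a median fold of 7.16 and 6.74 in the activin lists, and the 11 under another name had 6.66 and 5.87. FOXL2 peaks of both activin libraries lay over 4 of the 8 and 8 of the 11, and H3K27ac peaks of both activin libraries over 7 of the 8 and 4 of the 11. The share of all SMAD2/3 sites by single peaks was not computed, so these counts have no background. By merged regions, 13 of the 19 overlapped FOXL2 and 14 of the 19 H3K27ac, against 81.3% and 78.3% of all. The own-name and other-name sites were not tested against each other.

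**Figure D5:**
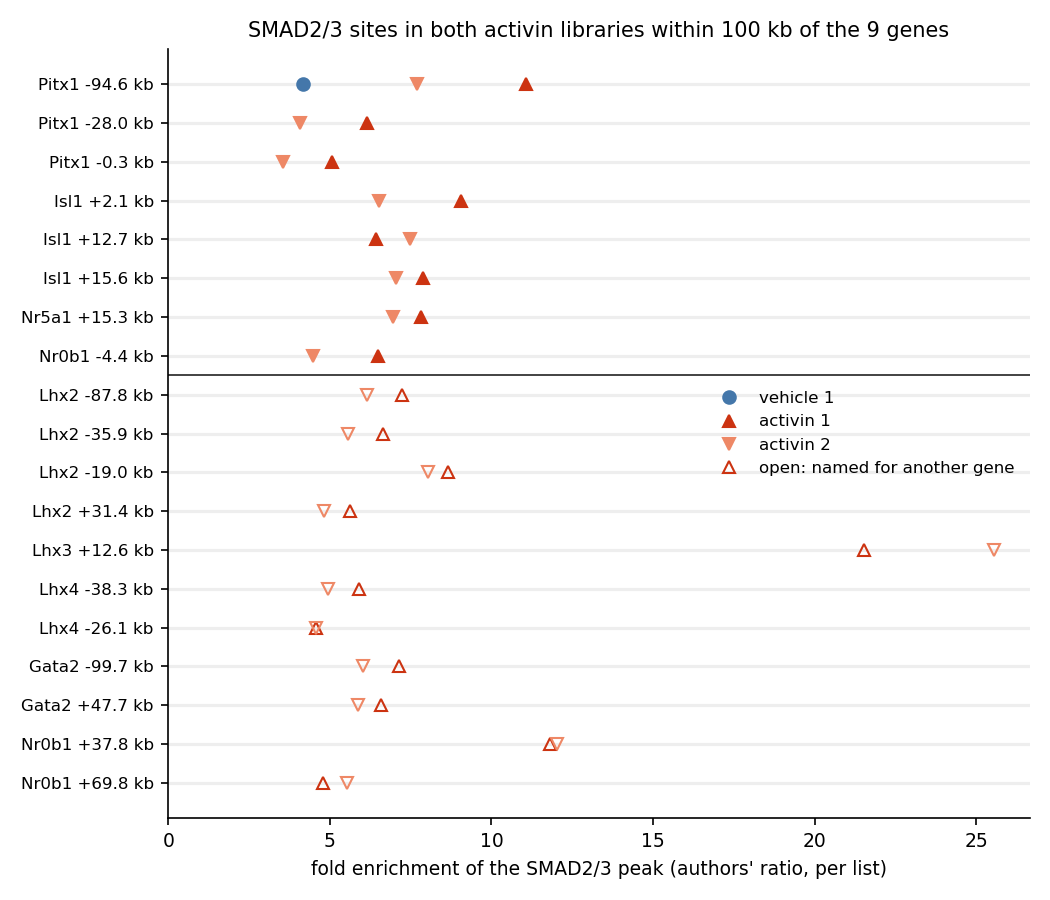
Fold enrichment (x axis, the authors' ratio within each list) of the 19 SMAD2/3 sites found in both activin libraries within 100 kb of the 9 starts, with 1 point per library. Filled points are named for the gene and open points for another; the Lhx3 site stands at 21.5 and 25.6, and the single vehicle point is at the farthest Pitx1 site.

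Related genes give a scale for these counts. Of the 28143 genes named by a peak within 100 kb, 60.3% had FOXL2 and 47.9% had H3K27ac in all 4 libraries. SMAD2/3 was found in both activin libraries for 11.8%. The lists below also hold genes that no peak names, so their counts and medians have another base. Among 10 early pituitary regulators, 4 had FOXL2 and 3 had H3K27ac in all 4 libraries, and 6 were named by no H3K27ac peak. Their median H3K27ac length was 0 kb and the longest was 6.4 kb at Hesx1. Among 11 cofactors of LIM-domain and GATA proteins, 3 had SMAD2/3 in both activin libraries, 7 had FOXL2 and 10 had H3K27ac in all 4, with a median of 1.49 kb and the longest, 19.6 kb, at Lmo1, which codes for a LIM-only protein. Among 19 paralogs of the 9 genes, 9 had FOXL2 and 5 had H3K27ac in all 4, with a median of 0 kb and the longest, 15.8 kb, at Gata4. Of the 9 genes themselves, 4 had SMAD2/3 in both activin libraries, 6 had FOXL2 and 8 had H3K27ac in all 4. Their median was 3.82 kb, against 0.46 kb over the genes that a peak names. The genes whose peak counts over the 12 libraries were most like those of Pitx1 were Sox5it, AL603834.1 and Prkar2a, at Euclidean distances of 1.25, 1.34 and 1.42 in log2(peaks + 1).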

How the data were processed

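ChIP-seq peaks from 12 libraries of LβT2 cells were used, and a Protein-A control sample was not analysed here. The submitters' processing notes name Bowtie2, MACS2, HOMER and the builds GRCm38 and mm10, with no versions and no parameters. Per the file headers, HOMER's annotatePeaks gave each peak a gene name, a class and a distance to the start in bp. Peaks were called by the authors in each library, not on pooled samples, as narrow peaks for SMAD2/3 and FOXL2 and broad peaks for H3K27ac. The deposited lists give for each peak a fold, a linear ratio over background, the −log10 of its p-value and of its q-value, and a score, which is 10 times the −log10 q without decimals. Fold and −log10 q were used only to describe or rank peaks within a list.

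The members and the gene lists were chosen with earlier results of these data known. Starts of genes were derived from the deposited distances, and that of Lhx3 from RefSeq GRCm38.p6. Peaks sharing at least 1 bp across the 4 libraries of a target were merged into regions. For counts and lengths per library the test was an exact permutation test, two-sided, over 6 labellings. All 9 genes were described, with, for each, its strongest region per target, the regions over its start and every SMAD2/3 region in both libraries of a treatment; other regions were named after their values were seen, for a change of rank or for presence in a single treatment. The labels name no batch. The counting of regions and ranks was tested on simulated data. Python 3.11.15, numpy 2.4.6 and pandas 2.3.3 were used. Alternatives changed the distance limit, the −log10 q, the naming of peaks, the list length, the overlap and the libraries used. SMAD2/3 counts of the early regulators and of the paralogs are not reported here.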

Additional observations from a re-analysis of the deposited data

How the results depend on the processing

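Of 124 alternative values for 14 results, 94 stayed close to the reported ones, 25 moved and 5 changed sign or went to 0. With lists of equal length, no SMAD2/3 peak of these genes stayed in any list, so the difference in SMAD2/3 peaks was 0. The difference in FOXL2 peaks was then -4.5, and why it changed sign was not tested. With a −log10 q of at least 5, the H3K27ac differences were -1 peak and -1.63 kb, vehicle-only regions were 0 for FOXL2 and 1 for H3K27ac, activin-only H3K27ac regions 1, and H3K27ac regions ranking higher with activin 3 (of 9); the cause was not tested. With any peak within 100 kb counted whatever its name, which adds peaks by construction, activin-only regions were 18 for SMAD2/3 and 9 for FOXL2, vehicle-only regions 4 for FOXL2 and 7 for H3K27ac, and regions ranking higher with activin 27 (of 106) for FOXL2 and 21 (of 51) for H3K27ac. Vehicle-only FOXL2 regions were 2 with no distance limit, vehicle-only H3K27ac regions 1 within 50 kb, and H3K27ac regions ranking higher with activin 3 by fold.

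Leaving out each library in turn gave SMAD2/3 differences of 7.5 to 8.5 peaks, FOXL2 differences of -2.5 (without vehicle 1) to 9.5, and H3K27ac differences of 1 to 6 peaks and 0.285 to 1.63 kb. Activin-only regions ran from 7 to 8 for SMAD2/3, 5 to 7 for FOXL2 and 4 to 9 for H3K27ac, vehicle-only regions from 2 to 8 for FOXL2 and 3 to 5 for H3K27ac, and regions ranking higher with activin from 14 to 18 (FOXL2) and 6 to 8 (H3K27ac). By construction, activin-only and vehicle-only counts can only stay or rise when a library is left out, and fewer libraries have to agree on a rank. With a library left out, the overlap of SMAD2/3 with FOXL2 ran from 55.6% to 87.5%, and that with merged H3K27ac regions stayed at 100%. By position whatever the name, these overlaps were 68.4% and 73.7%.

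Replicate numbers were also used as a block, although the labels do not say that they pair libraries, and deviations of same-numbered libraries correlated at 0.16 over 58444 FOXL2 regions and -0.034 over 24356 H3K27ac regions. With the replicate block the differences were the same, 8, 3.5 and 3.5 peaks and 0.959 kb, with exact permutation p of 0.5, 1, 0.5 and 1, where 0.5 is the smallest possible. Unknown read depth limits every count.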
